A study of Mus musculus with 16 samples.

Results

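Transforming growth factor β1 (TGFβ1) is secreted in a latent form, and regulatory T cells (Treg) hold and release it with a small set of proteins. The 6 genes described here encode that set: Lrrc32 (GARP, the surface protein on which latent TGFβ1 docks), Itgb8 and Itgav (the chains of integrin αvβ8, which frees the active cytokine), Tgfb1 (the ligand), Nrp1 (neuropilin 1, a co-receptor that can bind latent TGFβ1) and Furin (the protease that cuts the TGFβ1 precursor). Members were chosen by name. They comprise all regions of the count table whose nearest transcript carries 1 of these symbols, which gave 144 of 177720 regions and 6 of 15543 gene symbols. There were 5 regions for Lrrc32, 36 for Itgb8, 26 for Itgav, 1 for Tgfb1, 65 for Nrp1 and 11 for Furin.

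The measurement is 5-hydroxymethylcytosine (5hmC), the base that TET enzymes make by oxidising methylated cytosine, mostly at CpG dinucleotides. In T cells 5hmC is often found in active enhancers and in the bodies of transcribed genes, but it is not itself a measure of transcription. The assay, CMS-IP, lets bisulfite turn 5hmC into a sulfonate adduct (CMS) and enriches the fragments that carry it with an antiserum. It resolves fragments, not single bases.

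The source of the CD4+ T cells was the spleen and lymph nodes of mice of strain C57BL/6, 5 to 6 weeks of age, that carry the Foxp3-eGFP reporter, in which green fluorescent protein reports Foxp3, the lineage factor of Treg. All 4 groups share this strain and reporter: naive cells sorted directly, Treg sorted directly, induced Treg (iTreg) differentiated from naive cells with TGFβ, and iTreg that received retinoic acid (RA) plus VitC, which is vitamin C, on top of TGFβ. The last group is written RA+VitC iTreg. RA and VitC were given together, so their effects cannot be told apart, and culture itself separates both kinds of iTreg from the sorted cells. Libraries numbered 2 for the pull-down and 2 for the input in each group. Whether these replicates were separate mice or cultures is not stated in the labels. The spread behind the p-values of the fits is that between the 2 libraries within groups, shared over the 4 groups, and could be technical only. In bulk libraries, fewer cells that carry 5hmC and less 5hmC per cell cannot be told apart.

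Depth in the regions was 1648804 to 9731897 reads for pull-downs and 1028822 to 1563165 for inputs. The 2 TGFβ iTreg pull-downs were the shallowest and had 1.49 and 1.72 reads for each input read, against 3.14 to 3.88 in RA+VitC iTreg. The sorted cells had 4.9 to 6.39. Values below are CPM: the reads of a region or gene relative to all reads that the library has in regions, scaled with edgeR's TMM factors. A region at 0 could still hold 3 reads. Without TMM that is 1.42 to 1.82 CPM in TGFβ iTreg, 0.751 to 0.784 in RA+VitC iTreg, but 0.308 to 0.391 in sorted cells. The 6 Treg marker genes (Foxp3, Ikzf2, Il2ra, Ctla4, Tnfrsf18, Ikzf4) summed to 782 and 794 CPM in naive cells, 2110 and 2130 in Treg, 2440 and 2860 in TGFβ iTreg, and 3170 and 3340 in RA+VitC iTreg. All 6 were called higher in Treg than in naive cells. In iTreg that sum was carried mostly by Il2ra, Ctla4 and Ikzf2, with group means of 851, 789 and 784 CPM in TGFβ iTreg against 129, 209 and 330 in naive cells. Foxp3 itself read 15.1 CPM in naive cells, 35.7 in Treg, 16.8 in TGFβ iTreg and then 42.4 with RA+VitC, and its TGFβ iTreg difference from naive cells was 0.19 on the log2 scale (adjusted p = 0.49).

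Both chains of the activating integrin had annotated transcription starts that no region of the same gene covered. For Itgb8 the nearest regions lay 779 bp upstream and 347 bp downstream of the start, and for Itgav 466 bp upstream and 836 bp downstream. The 250 bases before each start are shown because these gaps lie in CpG-bearing sequence. They are RefSeq sequences of build GRCm38.p6, on the strand of the gene, with every CpG in capitals.
Itgb8, chr12:119238277-119238526, minus strand: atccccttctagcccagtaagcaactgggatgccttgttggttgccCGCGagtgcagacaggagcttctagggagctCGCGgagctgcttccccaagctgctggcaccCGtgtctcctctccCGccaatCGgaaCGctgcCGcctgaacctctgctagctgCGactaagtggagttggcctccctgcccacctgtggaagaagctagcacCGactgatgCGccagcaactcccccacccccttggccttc
Itgav, chr2:83724147-83724396, plus strand: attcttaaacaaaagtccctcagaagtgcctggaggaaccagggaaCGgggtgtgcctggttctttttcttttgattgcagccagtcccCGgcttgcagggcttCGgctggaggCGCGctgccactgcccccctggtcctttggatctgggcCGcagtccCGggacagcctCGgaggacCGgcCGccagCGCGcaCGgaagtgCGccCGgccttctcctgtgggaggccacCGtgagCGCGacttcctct
The Itgb8 stretch held 12 CpG and the Itgav stretch 18. Of 32851 promoters of the same length, 66.5% held fewer CpG than that of Itgb8 and 78.3% fewer than that of Itgav, 92.1% held at least 1, and the median was 6. The corresponding counts were 21 for Tgfb1, 11 for Nrp1, and 6 and 40 for the 2 Furin promoters in the RefSeq table. The starts of Tgfb1 and Nrp1 were also not covered by a region of their gene, with gaps of 2967 bp downstream for Tgfb1, and of 1906 bp upstream and 1042 bp downstream for Nrp1. Those of Lrrc32 and Furin were covered. The start of a gene here is the outermost one of its transcripts in the count table. Lrrc32 spans 7609 bp there and 12527 bp in RefSeq, and coverage of its RefSeq start was not tested. Coverage of the start that belongs to the other Furin promoter was not tested.

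Lrrc32, the docking receptor, carried more 5hmC in every Treg population than in naive cells and the most in iTreg. Its summed level was 47.6 and 49.8 CPM in naive cells, 183 and 181 in Treg, 342 and 384 in TGFβ iTreg, and 548 and 497 in RA+VitC iTreg. The 4 groups did not overlap, and they stood in the order naive, Treg, TGFβ iTreg, RA+VitC iTreg. Against naive cells the log2 fold change was 1.91 (SE 0.07, adjusted p = 8.7e-55) in Treg, 2.93 (SE 0.07, adjusted p = 2.6e-69) in TGFβ iTreg and 3.36 (SE 0.06, adjusted p = 6.9e-85) in RA+VitC iTreg. Sorted Treg stood below both kinds of iTreg, with log2 fold changes of -1.01 (SE 0.06, adjusted p = 2e-30) against TGFβ iTreg and -1.45 (SE 0.05, adjusted p = 1.5e-52) against RA+VitC iTreg. RA+VitC iTreg exceeded TGFβ iTreg by 0.44 (SE 0.06, adjusted p = 1.3e-09).

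Most of the Lrrc32 signal came from a single broad region, chr7:105638978-105654721 (build mm9, as are all region coordinates below). It begins 3.8 kb before the start of the transcript in the table and overlaps its promoter, exons, introns and 3′ UTR. This region read 18.3 and 20.4 CPM in naive cells, 116 and 118 in Treg, 235 and 278 in TGFβ iTreg, and 441 and 396 in RA+VitC iTreg. It had the lowest p of the Lrrc32 regions in all 6 comparisons. It held 38.4% and 41% of the gene's reads in the naive libraries, 63.4% and 65.5% in Treg, 68.8% and 72.5% in TGFβ iTreg, and 80.6% and 79.6% in RA+VitC iTreg, a share that differed without overlap between the 4 groups. The other 4 regions lie downstream of the gene and together read 107 and 106 CPM in TGFβ iTreg against 107 and 101 in RA+VitC iTreg (log2 fold change -0.04, SE 0.10, adjusted p = 0.88). In the region over the gene the excess of RA+VitC iTreg over TGFβ iTreg was 0.70 (SE 0.08, adjusted p = 2.7e-14). The difference between the region over the gene and those downstream was not tested.

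Itgb8, the integrin chain that pairs with αv to make αvβ8, followed another order: it was highest in sorted Treg. Its summed level was 20.5 and 22.2 CPM in naive cells, 90.1 and 87.6 in Treg, 53.9 and 61.8 in TGFβ iTreg, and 29.9 and 27.7 in RA+VitC iTreg. No 2 groups overlapped. Treg exceeded naive cells by 2.07 on the log2 scale (SE 0.09, adjusted p = 5.7e-46), TGFβ iTreg by 0.60 (SE 0.11, adjusted p = 1.5e-06) and RA+VitC iTreg by 1.7 (SE 0.10, adjusted p = 6.6e-31). TGFβ iTreg exceeded naive cells by 1.47 (SE 0.13, adjusted p = 2.1e-18). RA+VitC iTreg stood 1.10 below TGFβ iTreg (log2 fold change -1.10, SE 0.15, adjusted p = 6.1e-10). Its excess over naive cells was 0.37 (SE 0.13, adjusted p = 0.013). That call was lost with plain library-size scaling (0.22, adjusted p = 0.15), with all libraries thinned to equal depth (0.31, adjusted p = 0.28), without naive replicate 1 (0.32, adjusted p = 0.073) and without RA+VitC iTreg replicate 1 (0.32, adjusted p = 0.13).

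**Figure D1:**
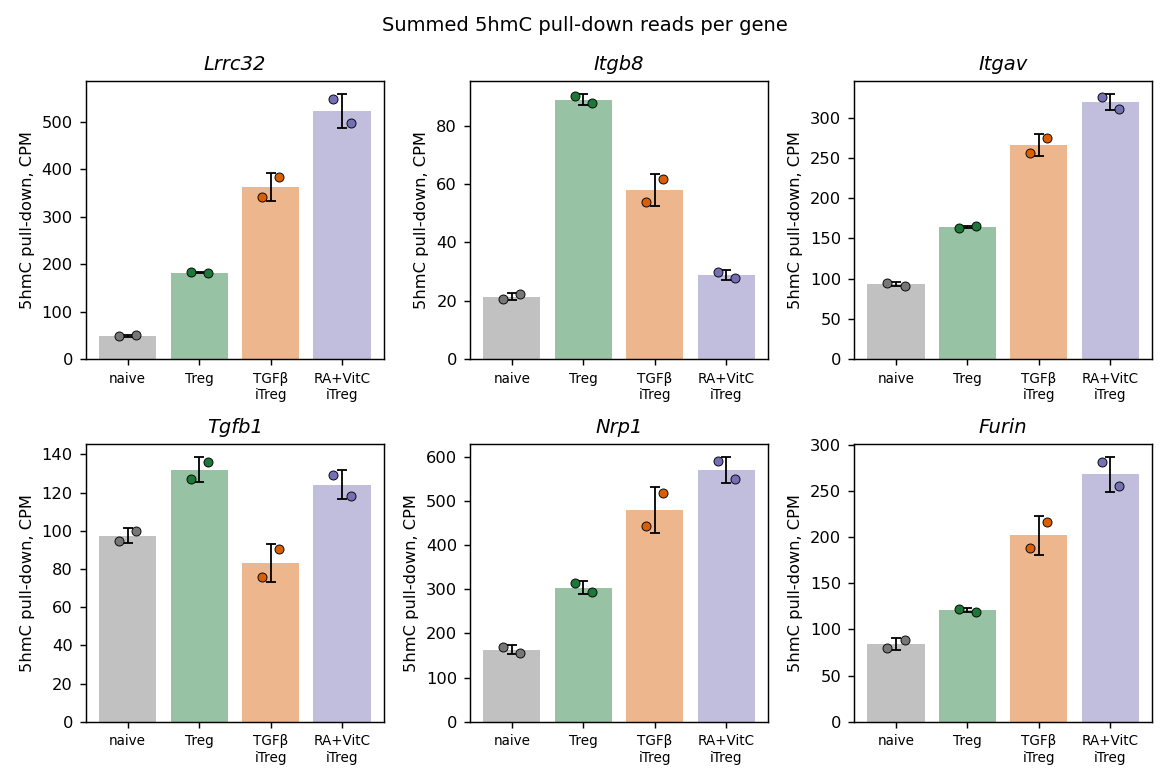
Summed 5hmC pull-down of each of the 6 genes in CPM (vertical axes, linear, each panel with its own scale starting at 0) in the 4 groups. Points are the 2 libraries of a group, bars the mean and whiskers the SD. Itgb8 is highest in sorted Treg (87.6 and 90.1 CPM), whereas Lrrc32, Itgav, Nrp1 and Furin are highest in RA+VitC iTreg.

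Itgb8 signal was thin and spread over many narrow regions rather than 1 broad one. Of its 36 regions, 29 had their highest group mean in Treg, 4 in TGFβ iTreg, 2 in naive cells and 1 in RA+VitC iTreg, whereas Treg was the highest group in 23.4% of all regions of the table. Both Treg libraries stood above both naive libraries in 29 of the 36 regions, above both RA+VitC iTreg libraries in 29, and above both TGFβ iTreg libraries in 20. Over all regions of the table those shares were 28.3%, 32.1% and 28.3%. The 10 regions that were too low to test count among the 36.

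Of the 26 Itgb8 regions tested, 22 were called higher in Treg than in naive cells (13% of all regions tested were called higher in that comparison) and 16 higher in Treg than in RA+VitC iTreg (11.4% of all). Against TGFβ iTreg 1 was called higher (5.82% of all) and 25 were not called. The filter on low counts asks for 2 libraries above its minimum, and 11 of the 26 would not have passed without the Treg libraries. These 11 hold 11 of the 22 calls and 8 of the 16. Regions that entered in this way had to be higher in Treg, so the counts of calls are a description. Those over all 36 regions above need no count filter, but the 36 are themselves called peaks. A peak found through Treg alone would tend to be highest in Treg, so those counts are a description too. With 3 reads worth 1.42 to 1.82 CPM in TGFβ iTreg before TMM scaling, small differences in single regions were not detectable at this depth. The region that passed is the one just upstream of the start, chr12:120477528-120478450, annotated as promoter. It read 0.618 and 0.594 CPM in naive cells, 6.28 and 5.92 in Treg, 1.72 and 0.483 in TGFβ iTreg, and 1.69 and 0.576 in RA+VitC iTreg. Both Treg libraries stood above the other 6, which overlapped with each other. The log2 fold change of Treg was 3.29 (SE 0.37, adjusted p = 9.7e-17) against naive cells, 2.51 (SE 0.57, adjusted p = 0.00017) against TGFβ iTreg and 2.40 (SE 0.44, adjusted p = 6.9e-07) against RA+VitC iTreg. Without TGFβ iTreg replicate 2 the second of these was 1.83 and missed the threshold (adjusted p = 0.097). The closest region on the other side of the start, chr12:120476133-120476402 over the 5′ UTR, was too low to test: it read 1.97 and 1.59 CPM in Treg and 0 to 0.965 in the other 6 libraries.

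A region in the Itgb8 introns had another order of group means than the gene as a whole. The region with the highest mean of the gene, chr12:120442386-120443413, begins 33.3 kb into the transcript. It read 1.24 and 0.991 CPM in naive cells, 3.45 and 3.76 in Treg, 5.74 and 8.21 in TGFβ iTreg, and 1.69 and 2.59 in RA+VitC iTreg. The mean was highest in TGFβ iTreg, but Treg against TGFβ iTreg was not called (-0.97, SE 0.37, adjusted p = 0.055). TGFβ iTreg gave a log2 fold change over naive cells of 2.66 (SE 0.45, adjusted p = 7.2e-08). RA+VitC iTreg against TGFβ iTreg gave -1.71 (SE 0.47, adjusted p = 0.0071), a call lost without TGFβ iTreg replicate 2 (-1.36, adjusted p = 0.29) or without RA+VitC iTreg replicate 1 (-1.40, adjusted p = 0.16). The adjoining region, chr12:120443567-120444287, read 0 and 0.0991 CPM in naive cells, 4.93 and 3.08 in Treg, 2.87 and 0.483 in TGFβ iTreg, and 1.98 and 1.15 in RA+VitC iTreg. With 1 read in naive cells, no fold is given for it.

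**Figure D2:**
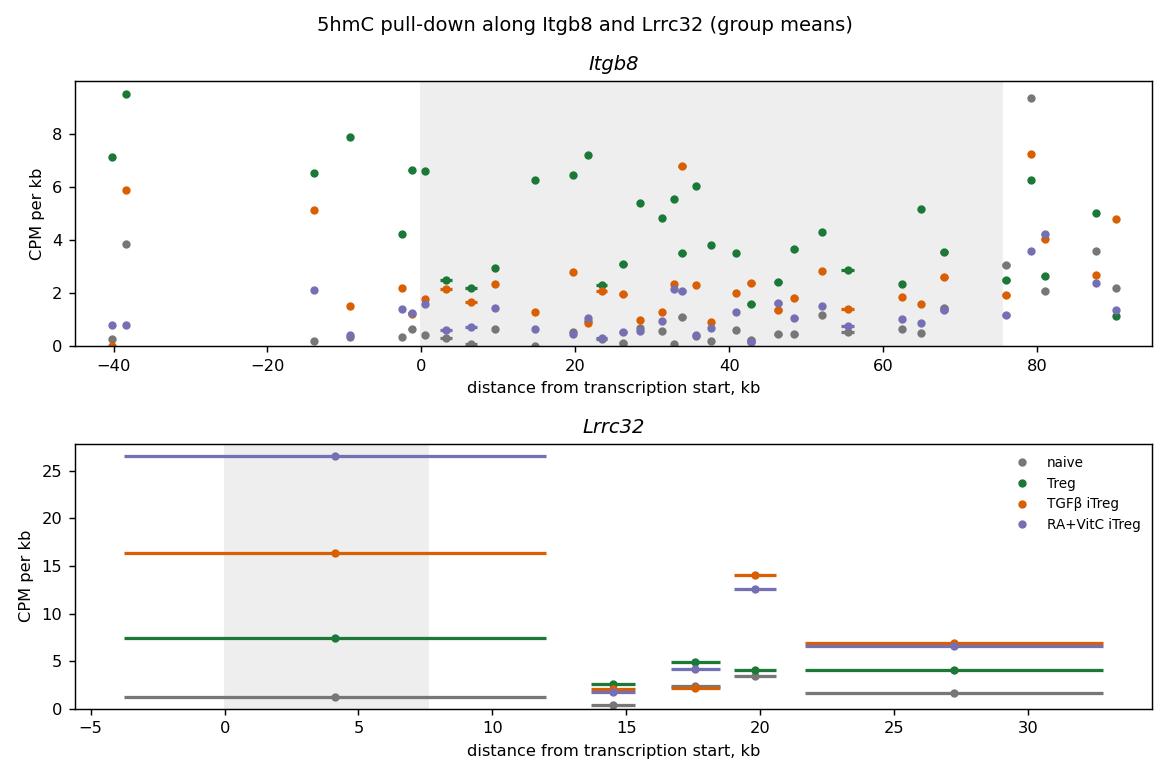
Mean 5hmC pull-down per kilobase (CPM per kb, vertical axes from 0) of each region of Itgb8 and Lrrc32 against its distance in kb from the transcription start, in the direction of transcription. Horizontal strokes span the region where it is wide enough to show, dots mark its centre, colours are group means of 2 libraries and grey shading is the transcript in the table. An Itgb8 region that begins 170.4 kb from the start is not drawn. Treg has the highest mean in 29 of all 36 Itgb8 regions, whereas both kinds of iTreg lie above Treg in the broad region over Lrrc32.

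Per kilobase of region the levels of the genes can be set side by side. Itgb8 held 0.859 ± 0.048 CPM per kb in naive cells, 3.57 ± 0.073 in Treg, 2.33 ± 0.22 in TGFβ iTreg, then 1.16 ± 0.065 in RA+VitC iTreg (mean ± SD, n = 2). Lrrc32 held 1.52 ± 0.05, 5.68 ± 0.042, 11.4 ± 0.92 and 16.3 ± 1.1 CPM per kb in the same groups. The mean density over all regions of the table was 3.86 CPM per kb. Lrrc32 was thus below that mean in naive cells and above it elsewhere, and Itgb8 was below it in every group.

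The inputs show how low Itgb8 stood. Input CPM was not TMM-scaled. Relative to its input CPM, the Itgb8 pull-down was 0.16 in naive cells and 0.723 in Treg. It was 0.465 and 0.211 in iTreg made with TGFβ and with RA+VitC. Among 5890 genes with enough input reads, 0.136%, 25.9%, 0.441% and 0.017% had a lower ratio in these groups. Itgb8 was therefore near the bottom of all genes in naive cells and in both kinds of iTreg, and was not in Treg. The lowest ratio of any gene was itself 0.386 in TGFβ iTreg, against 0.108 in RA+VitC iTreg, and the TGFβ iTreg pull-downs also had the fewest reads per input read. In naive cells the lowest ratio was 0.0298. The 1st percentile of genes was 0.31 there and 0.495 in TGFβ iTreg. The excess of Itgb8 in TGFβ iTreg over RA+VitC iTreg, and over naive cells, moves with these values. Their part in it, in the Treg excess over TGFβ iTreg and in the contrast with Lrrc32 below was not tested. For Lrrc32 the same ratio was 0.516 in naive cells, 1.98 in Treg, and 3.43 and 5.62 in iTreg made with TGFβ and with RA+VitC, and 6.49%, 98.9%, 99.9% and 99.9% of genes had a lower one.

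The contrast between the activating and the docking gene was taken as log2 of Itgb8 over Lrrc32 reads within each library, which needs no scaling between libraries. It was -1.21 and -1.17 in naive cells, -1.02 and -1.05 in Treg, -2.66 and -2.63 in TGFβ iTreg, and -4.19 and -4.17 in RA+VitC iTreg. Treg and naive cells lay close together, both kinds of iTreg lay below them, and no 2 groups overlapped. Treg exceeded TGFβ iTreg by 1.62, a 3.07-fold higher ratio, and RA+VitC iTreg by 3.15, an 8.87-fold higher ratio. Against the 4 iTreg libraries together the difference was 2.38 (5.22-fold). A two-sided exact permutation test gave p = 0.333 for each single comparison and p = 0.133 for the pooled one, which are the smallest values that 2 against 2 and 2 against 4 libraries can give, so this design cannot reach 0.05. The 2 libraries of a group differed by less than their counting error, whose SE was 0.0634 to 0.16 per library on this scale, so their SD would understate the spread. Both 1.62 and 3.15 exceed that counting error.

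The size of that contrast depended on which regions were counted. With only regions that overlap a transcript, the differences were 1.77 against TGFβ iTreg and 3.63 against RA+VitC iTreg. With only the region of each gene that held the most reads, they were 3.87 and 4.46. For Itgb8 this is the promoter region, which had 3 and 1 reads in TGFβ iTreg with 6 and 2 in RA+VitC iTreg, so the SDs were 1.5 and 0.99 and these sizes are poorly fixed. With the region of highest mean CPM, a rule chosen after seeing the data, the differences were 0.20 and 2.62. For Itgb8 that is the intronic region in which TGFβ iTreg had the highest mean, and the Treg excess over TGFβ iTreg was then below the counting SE of 0.255 to 0.462 in these 2 groups.

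**Figure D3:**
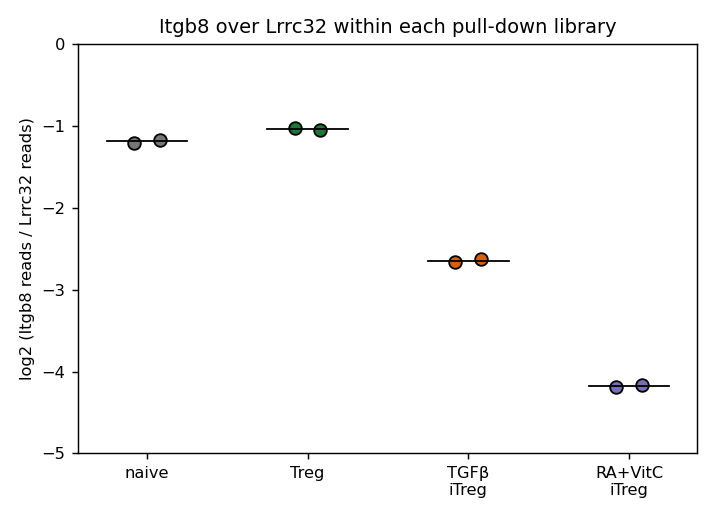
Log2 of summed Itgb8 reads over summed Lrrc32 reads (vertical axis) in each of the 8 pull-down libraries, by group. Points are libraries and lines are group means of 2. Sorted Treg lie near -1, TGFβ iTreg at -2.66 and -2.63, and RA+VitC iTreg at -4.19 and -4.17.

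Itgav, the αv chain that Itgb8 needs as its partner, did not share the order of Itgb8. Its level was 94.8 and 91.2 CPM in naive cells, 163 and 165 in Treg, 256 and 275 in TGFβ iTreg, and 326 and 311 in RA+VitC iTreg. The groups did not overlap, and the order was that of Lrrc32. Treg exceeded naive cells by 0.84 (SE 0.06, adjusted p = 3.2e-26) and stood below TGFβ iTreg (log2 fold change -0.71, SE 0.07, adjusted p = 1.2e-17) and RA+VitC iTreg (-0.89, SE 0.06, adjusted p = 6e-30). TGFβ iTreg exceeded naive cells by 1.55 (SE 0.07, adjusted p = 4.7e-42) and RA+VitC iTreg did so by 1.72 (SE 0.06, adjusted p = 8.4e-55). Between the 2 kinds of iTreg the difference was 0.18 (SE 0.07, adjusted p = 0.04). This call was lost with library-size scaling (0.07, adjusted p = 0.46), with DESeq2 (adjusted p = 0.091), with a filter at a mean of 50 reads (adjusted p = 0.057), and without either naive, either TGFβ iTreg or the first RA+VitC iTreg library (adjusted p 0.065 to 0.18).

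The widest gap at Itgav between sorted and induced cells lay upstream of the gene. The region chr2:83549233-83552152, intergenic and 12.4 kb before the start, read 3.71 and 3.37 CPM in naive cells, 7.64 and 7.4 in Treg, 58.5 and 51.2 in TGFβ iTreg, and 48 and 46.7 in RA+VitC iTreg. Both iTreg groups stood far above both sorted groups, and the 2 kinds of iTreg differed little from each other. Treg against TGFβ iTreg gave -2.86 (SE 0.17, adjusted p = 1.1e-57), and RA+VitC iTreg against TGFβ iTreg -0.20 (SE 0.14, adjusted p = 0.48). The promoter region chr2:83561762-83564088 had a smaller gap in the same direction, with 5.44 and 5.85 CPM in naive cells, 9.61 and 9.68 in Treg, 20.1 and 26.1 in TGFβ iTreg, and 24.9 and 16.4 in RA+VitC iTreg. Inside the gene the pattern differed by region. The first intronic region, chr2:83565390-83570420, read 26.2 and 31 CPM in Treg, 18.9 and 31.9 in TGFβ iTreg, and 49.7 and 42.9 in RA+VitC iTreg. RA+VitC iTreg exceeded TGFβ iTreg there by 0.84 (SE 0.17, adjusted p = 8.6e-05), though without TGFβ iTreg replicate 1, the lower library, the difference was 0.57 (adjusted p = 0.098). The region with the most Itgav reads, chr2:83581511-83588985, begins 17 kb into the gene and rose from 18.4 and 15.8 CPM in naive cells to 78.3 and 68.9 in RA+VitC iTreg, with 29.6 and 25.3 in Treg and 52.2 and 52.6 in TGFβ iTreg. The region most clearly higher in Treg than in naive cells, chr2:83601750-83605533, read 2.72 and 3.37 CPM in naive cells, 11.5 and 9.11 in Treg, 13.8 and 11.6 in TGFβ iTreg, and 11.9 and 12.4 in RA+VitC iTreg, and was not called between Treg and either kind of iTreg.

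Tgfb1, the ligand, stood closest to naive cells of the 6 genes in all 3 Treg populations and had 1 region, chr7:26474988-26498829, which covers exons, introns and the 3′ UTR. It read 94.6 and 100 CPM in naive cells, 127 and 136 in Treg, 75.8 and 90.3 in TGFβ iTreg, and 129 and 118 in RA+VitC iTreg. TGFβ iTreg were lowest, and Treg and RA+VitC iTreg overlapped. In the gene test Treg exceeded naive cells by 0.45 (SE 0.06, adjusted p = 2.6e-10) and TGFβ iTreg by 0.64 (SE 0.09, adjusted p = 2.5e-09). RA+VitC iTreg exceeded TGFβ iTreg by 0.48 (SE 0.10, adjusted p = 7.7e-05). It exceeded naive cells by 0.29 (SE 0.07, adjusted p = 0.00036), which fell to 0.13 (adjusted p = 0.097) with library-size scaling. TGFβ iTreg against naive cells gave -0.20 (SE 0.10, adjusted p = 0.093), and -0.25 (adjusted p = 0.026) with library-size scaling. Treg against RA+VitC iTreg gave 0.16 (SE 0.07, adjusted p = 0.049). That last call was lost with DESeq2, with thinning, with only regions that overlap a transcript, and without either naive library, Treg replicate 2 or either RA+VitC iTreg library (adjusted p 0.05 to 0.54). The region test, which is fitted over regions and not genes, did not call it (0.09, SE 0.09, adjusted p = 0.48).

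Nrp1, a surface marker often used to tell thymus-derived from induced Treg, carried more 5hmC in iTreg than in sorted Treg. Its level was 170 and 156 CPM in naive cells, 314 and 294 in Treg, 443 and 518 in TGFβ iTreg, and 592 and 550 in RA+VitC iTreg. The groups did not overlap. Treg exceeded naive cells by 0.92 (SE 0.05, adjusted p = 3.9e-33) and stood below TGFβ iTreg (-0.68, SE 0.06, adjusted p = 2.6e-20) and RA+VitC iTreg (-0.84, SE 0.05, adjusted p = 1.3e-31). Against naive cells TGFβ iTreg gave 1.60 and RA+VitC iTreg 1.76 (adjusted p = 4.8e-50 and 1e-60). The 2 kinds of iTreg differed by 0.16 (SE 0.06, adjusted p = 0.031). This call was lost with library-size scaling (0.06, adjusted p = 0.5), DESeq2 (adjusted p = 0.092), the filter at 50 reads (adjusted p = 0.052), and without either naive library, TGFβ iTreg replicate 1 or RA+VitC iTreg replicate 1 (adjusted p 0.05 to 0.39).

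The start and the far downstream flank of Nrp1 ranked the groups differently. The region with the most reads, chr8:130884015-130892876, begins 1 kb after the start. It read 13.4 and 11.8 CPM in naive cells, 36 and 35.1 in Treg, 25.3 and 22.2 in TGFβ iTreg, and 55.9 and 51.6 in RA+VitC iTreg, so that Treg lay above TGFβ iTreg and below RA+VitC iTreg. RA+VitC iTreg exceeded TGFβ iTreg there by 1.19 (SE 0.17, adjusted p = 1.3e-09). Treg exceeded TGFβ iTreg by 0.59 (SE 0.17, adjusted p = 0.0061). That call was lost with DESeq2 (adjusted p = 0.064), with thinning (adjusted p = 0.073) and without TGFβ iTreg replicate 2 (0.51, adjusted p = 0.18). The promoter region chr8:130880153-130881067 read 4.43 and 4.56 CPM in Treg, 2.3 and 0.483 in TGFβ iTreg, and 6.21 and 5.76 in RA+VitC iTreg, beside 2.47 and 2.77 in naive cells.

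More than 50 kb beyond the 3′ end, in intergenic sequence for which Nrp1 is the nearest transcript, the order of the 2 kinds of iTreg differed by region. The region chr8:131086284-131088226 read 1.85 and 1.39 CPM in naive cells, 2.71 and 2.28 in Treg, 25.8 and 30.4 in TGFβ iTreg, and 15.8 and 15.8 in RA+VitC iTreg. Both kinds of iTreg were far above both sorted groups. Treg against TGFβ iTreg gave -3.50 (SE 0.26, adjusted p = 6.4e-40), and RA+VitC iTreg against TGFβ iTreg -0.84 (SE 0.21, adjusted p = 0.0025), which missed the threshold without TGFβ iTreg replicate 2 (-0.65, adjusted p = 0.24) or RA+VitC iTreg replicate 1 (-0.80, adjusted p = 0.051). A neighbour, chr8:131095975-131098089, read 2.09 and 2.85 CPM in Treg, 25.8 and 21.2 in TGFβ iTreg, and 24.6 and 16.1 in RA+VitC iTreg. By contrast chr8:131081763-131085257, also downstream, was highest in RA+VitC iTreg with 30.2 and 24.8 CPM, against 13.2 and 10.1 in TGFβ iTreg, 8.74 and 7.18 in Treg, with 1.98 and 1.88 for naive cells. Whether these regions act on Nrp1 was not measured.

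Furin, the convertase, followed the order of Lrrc32. Its level was 79.6 and 88.5 CPM in naive cells, 122 and 119 in Treg, 188 and 217 in TGFβ iTreg, and 282 and 255 in RA+VitC iTreg. The groups did not overlap. Treg exceeded naive cells by 0.53 (SE 0.06, adjusted p = 1.3e-12) and stood below TGFβ iTreg (-0.76, SE 0.08, adjusted p = 2.4e-16) and RA+VitC iTreg (-1.08, SE 0.06, adjusted p = 6.5e-34). TGFβ iTreg exceeded naive cells by 1.30 (SE 0.08, adjusted p = 3.3e-31), RA+VitC iTreg by 1.61 (SE 0.06, adjusted p = 5.7e-49), and RA+VitC iTreg exceeded TGFβ iTreg by 0.32 (SE 0.07, adjusted p = 0.00035).

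At Furin the groups stood apart upstream and lay closer together at the start. The intergenic region chr7:87563074-87571535, 12.8 kb before the start, held the most reads. It read 20.5 and 23.9 CPM in naive cells, 34.6 and 36.1 in Treg, 86.7 and 89.3 in TGFβ iTreg, and 127 and 114 in RA+VitC iTreg. The groups did not overlap, and Treg against RA+VitC iTreg gave -1.77 (SE 0.10, adjusted p = 2.8e-69). Next to it, chr7:87556863-87562326 read 28.7 and 28.1 CPM in Treg, 32.7 and 40.1 in TGFβ iTreg, and 54.5 and 44.1 in RA+VitC iTreg, above 14.8 and 19.2 in naive cells. The region over the start, chr7:87548085-87551371, read 17.3 and 18.2 CPM in naive cells, 23.5 and 22.8 in Treg, 17.2 and 33.3 in TGFβ iTreg, and 23.2 and 20.7 in RA+VitC iTreg. It was not called between Treg and either kind of iTreg, and its TGFβ iTreg libraries lay on both sides of the other groups. Its TGFβ iTreg difference from naive cells was 0.54 (adjusted p = 0.02) and turned to -0.07 (adjusted p = 0.93) without TGFβ iTreg replicate 2. The 3′ end of Furin is also overlapped by a region that the table assigns to the neighbouring gene Fes (chr7:87531572-87535931; 6.68 and 8.12 CPM in naive cells, 10.6 and 11.2 in Treg, 29.3 and 32.3 in TGFβ iTreg, with 32.8 and 39.5 in RA+VitC iTreg). Adding it to Furin changed none of the 6 Furin calls.

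**Figure D4:**
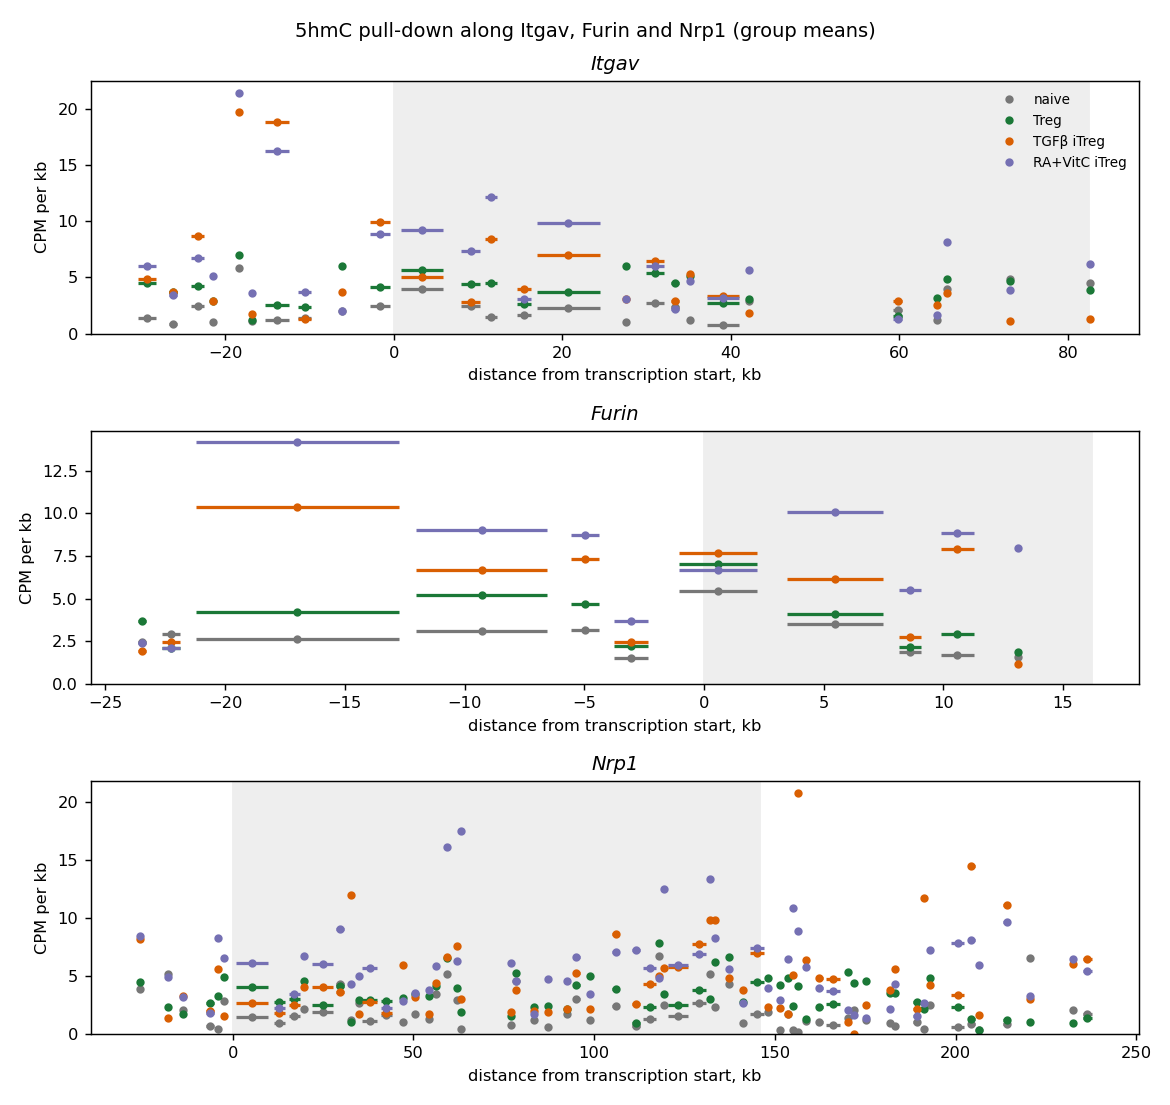
Mean 5hmC pull-down per kilobase (CPM per kb, vertical axes from 0) of each region of Itgav, Furin and Nrp1 against its distance in kb from the transcription start, in the direction of transcription. Strokes span regions wide enough to show, dots mark centres, colours are group means of 2 libraries and grey shading is the transcript in the table. The upstream Itgav and Furin regions named in the text and several regions downstream of Nrp1 stand higher in both kinds of iTreg than in either sorted group. Not all upstream regions of Itgav and Furin do.

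Counted over the 6 genes, Treg exceeded naive cells at 6 (20% of all genes tested were called higher), TGFβ iTreg at 5 (23.4%) and RA+VitC iTreg at 6 (29.2%), with 0 lower in each. The 1 gene not called is Tgfb1 in TGFβ iTreg. RA+VitC iTreg exceeded TGFβ iTreg at 5 (12.4%) and stood below it at Itgb8 (10.7% called lower). Treg exceeded TGFβ iTreg at 2, Itgb8 and Tgfb1 (15%), and stood below it at the other 4 (20.7%). Treg exceeded RA+VitC iTreg at the same 2 (23.1%) and stood below at the same 4 (26.6%). The median log2 fold change of the 6 genes against naive cells was 0.88 for Treg and 1.51 for TGFβ iTreg, with 1.67 for RA+VitC iTreg, 0.25 between the 2 kinds of iTreg, and -0.69 and -0.86 for Treg against TGFβ and RA+VitC iTreg. Over all genes these medians lay between -0.02 and 0.02. These comparisons share libraries with each other and are not independent.

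Splitting each gene into regions that overlap a transcript and regions outside showed where the 2 kinds of iTreg differed. For Itgav the overlapping regions read 132 and 149 CPM in TGFβ iTreg against 203 and 193 in RA+VitC iTreg (log2 fold change 0.38, SE 0.08, adjusted p = 0.00017), whereas the outside regions read 124 and 126 against 123 and 119 (-0.06, adjusted p = 0.79). For Nrp1 the overlapping regions read 269 and 310 CPM against 403 and 381 (0.32, SE 0.07, adjusted p = 6.6e-05) and the outside regions 174 and 207 against 189 and 169 (-0.10, adjusted p = 0.48). Within transcripts the iTreg groups did not overlap at either gene, and outside them they did at Nrp1 and lay close together at Itgav. Furin was the reverse, with 0.23 (adjusted p = 0.18) in overlapping regions and 0.42 (SE 0.09, adjusted p = 2.4e-05) outside. Whether the change within transcripts differs from that outside was not tested. Over all genes tested on outside regions, 7.17% were called higher and 5.94% lower in RA+VitC than in TGFβ iTreg, and of the 5 members with such regions Furin was called higher and 0 lower. With overlapping regions 11.3% of genes were higher, and 4 of the 6 members, all but Itgb8 and Furin. Itgb8 was the 1 member higher in Treg on outside regions, against TGFβ iTreg (0.58, adjusted p = 0.019, where 9.77% of genes were higher) and against RA+VitC iTreg (1.28, adjusted p = 6.5e-11, where 17.2% were), and the 1 member higher than in RA+VitC iTreg on overlapping regions (1.85, adjusted p = 2.2e-28, where 21.9% were).

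With plain library-size scaling the median over all genes moved to -0.17 for RA+VitC iTreg against naive cells, -0.11 against TGFβ iTreg and 0.18 for Treg against RA+VitC iTreg, and the calls to 3477 higher and 5479 lower (4363 and 3974 with TMM), 1200 and 2399 (1853 and 1605), and 5337 and 2954 (3454 and 3979). For regions they became 24564 and 32487 (29710 and 21395), 3595 and 4543 (6180 and 2683), and 27227 and 18461 (15431 and 24105). The order of Treg and iTreg at Lrrc32, Itgav, Nrp1 and Furin, and the opposite order at Itgb8, held under both scalings.

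Region by region, 79 of the 119 member regions tested were higher in Treg than in naive cells and 0 lower (13% and 10.1% of all regions tested). The other 25 were too low to test. For TGFβ iTreg the counts were 58 higher and 1 lower (13.1% and 8.22%), and for RA+VitC iTreg 76 and 2 (21.9% and 15.8%). RA+VitC iTreg exceeded TGFβ iTreg in 15 regions and stood below in 7 (4.56% and 1.98%). Treg exceeded TGFβ iTreg in 5 and stood below in 30 (5.82% and 9.58%). Without TGFβ iTreg replicate 2 these were 2 and 19, and the 7 above was 2. Treg exceeded RA+VitC iTreg in 19 regions, 16 of them in Itgb8, and stood below in 47 (11.4% and 17.8%). Of the 119 regions, 17 would not have passed the filter without the Treg libraries, and these hold 15 of the 79 and 8 of the 19. In 9 others, 8 of them in Nrp1, only iTreg libraries reached the filter's minimum, which favours calls higher in iTreg. The counts of calls in both directions are therefore a description. The 19 fell to 9 to 11 when Treg replicate 1 or either RA+VitC iTreg library was left out. With DESeq2 the 79 became 40 and the 19 became 6, and with all libraries thinned to the shallowest they became 18 and 1. Calls over all regions fell too. Treg over naive cells went from 17583 to 5654 with DESeq2 and 3070 with thinning, and Treg over RA+VitC iTreg from 15431 to 4576 and 5859. Thinning left 50138 regions tested, against 135412 in the main fit and with DESeq2. No Itgb8 region was called lower in Treg than in either kind of iTreg, while 0 of 9 Furin regions tested were called higher. Lrrc32, Itgav and Nrp1 had regions on both sides: 3 lower and 1 higher of 5 for Lrrc32 against TGFβ iTreg, 8 lower and 1 higher of 24 for Itgav against RA+VitC iTreg, and 30 lower and 2 higher of 54 for Nrp1 against RA+VitC iTreg.

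**Figure D5:**
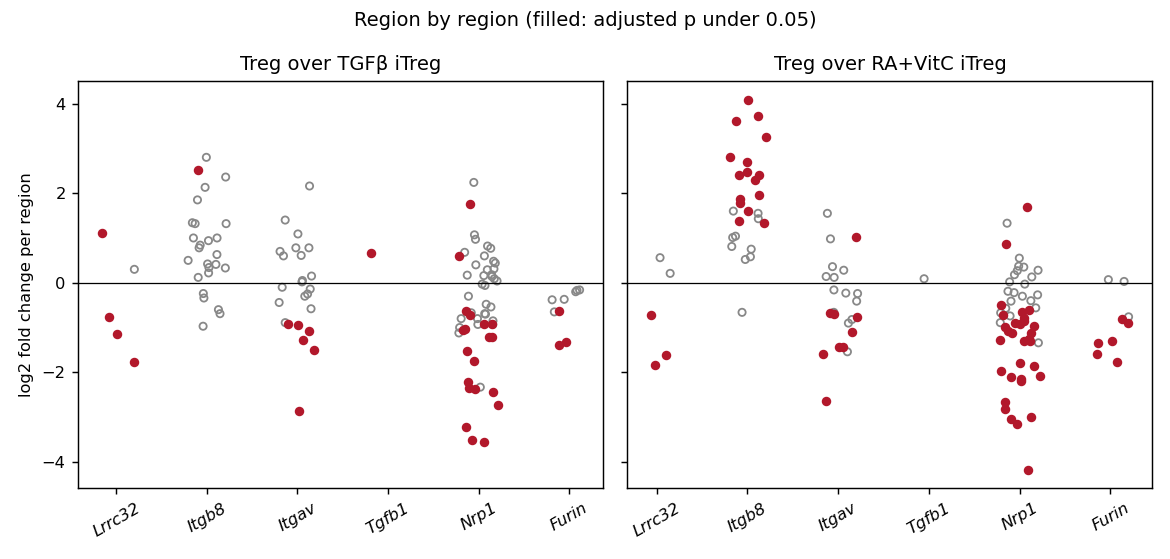
Log2 fold change per tested region (vertical axis) of Treg over TGFβ iTreg (left) and over RA+VitC iTreg (right), by gene; values above 0 are higher in Treg. Filled points passed an adjusted p of 0.05 in edgeR's quasi-likelihood test, and horizontal scatter within a gene is for legibility. On the right, 16 Itgb8 regions are filled above 0, whereas 30 Nrp1 regions are filled below 0. Some Itgb8 regions reached the count filter only in Treg and some Nrp1 regions only in iTreg, so these counts are a description.

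The same edgeR tests were run on the inputs with plain library size in place of TMM. They called 0 of 36 member gene comparisons (1 at an unadjusted p under 0.05) and 0 of 276 member region comparisons (11 at an unadjusted p under 0.05). The region tests cover 46 of the 144 member regions and 3 of the 36 of Itgb8, whose promoter region is not among them. Over all genes the input fits called 0% to 0.226% (0%, 0.0078%, 0.0234%, 0%, 0.0546% and 0.226% in the 6 comparisons), and over all regions 0%, 0.00223%, 0.00668%, 0%, 0.00223% and 0.00445%, in the order in which the 6 comparisons are counted above. Among markers of other cells, fibroblast markers (5 genes) summed to 140 and 144 CPM in naive cells, 211 and 208 in Treg, 169 and 164 in TGFβ iTreg, and 125 and 128 in RA+VitC iTreg, and platelet markers (3 genes) to 14.1 to 22.7 in all 8 libraries. Endothelial markers (4 genes) summed to 528 and 542 in naive cells, 588 and 574 in Treg, 555 and 628 in TGFβ iTreg, and 801 and 771 in RA+VitC iTreg, and their part in the Nrp1 result was not tested. The endothelial sum was carried mostly by Pecam1 (421, 476, 480 and 679 CPM in the groups in that order). Kdr read 18.4, 27.6, 50.1 and 46.5 CPM and was also higher in RA+VitC iTreg than in naive cells (log2 fold change 1.27, adjusted p = 1.5e-17). Cdh5 and Flt1 were lower in RA+VitC iTreg than in naive cells (log2 fold change -0.77, adjusted p = 8.6e-10, and -0.66, adjusted p = 1.8e-06). The fibroblast sum was highest in Treg, as Itgb8 was, and its rise over naive cells came mostly from Pdgfra (20.2, 80, 40.8 and 25.5 CPM). Dcn also had its highest mean in Treg (93.9, 105, 94.3 and 78.7 CPM), where it exceeded naive cells by 0.17 (adjusted p = 0.019). Col1a1, Col1a2 and Pdgfrb had their highest mean in TGFβ iTreg. Their part in the Itgb8 result was not tested. B cell markers summed to 113 to 153 over the 8 libraries, myeloid markers to 214 to 359, and CD8 and NK cell markers to 107 to 304 with the highest sums in naive cells. T cell markers (5 genes) summed to 682 and 702 in naive cells and 342 to 578 in the other 3 groups, and naive T cell markers (6 genes) to 4090 to 6220 over the 8 libraries. Trac, Siglech, Ncr1, Pf4, Ppbp and Tek are not listed in the table.

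The wider pathway had calls in both directions. Of 40 other genes that bind, activate or process latent TGFβ or pair with these proteins, 34 were tested. In Treg against naive cells 8 were higher and 7 lower (20% and 19.2% of all genes tested; median log2 fold change 0.09). In TGFβ iTreg 11 and 5 were (all genes 23.4% and 18.2%; median 0.10), and in RA+VitC iTreg 12 and 11 (29.2% and 26.6%; median -0.09). RA+VitC against TGFβ iTreg gave 4 higher and 6 lower (12.4% and 10.7%; median -0.07). Treg against TGFβ iTreg gave 6 and 9 (15% and 20.7%; median -0.01), and Treg against RA+VitC iTreg 7 and 9 (23.1% and 26.6%; median 0.11). Among genes that met the size rule, Ltbp1, a matrix protein that tethers latent TGFβ, resembled Itgb8 in being higher in Treg, by 1.13 over naive cells (SE 0.08, adjusted p = 3e-24) and by 1.53 over RA+VitC iTreg (SE 0.11, adjusted p = 1.4e-24). Ltbp2, its relative, exceeded naive cells in TGFβ iTreg by 2.06 (SE 0.18, adjusted p = 1.1e-19) and was lower in Treg than in TGFβ iTreg (-1.23, SE 0.17, adjusted p = 2e-10). Itgb5, another partner chain of αv, had the order of Itgav and not that of Itgb8: it was 1.37 and 1.5 above naive cells in TGFβ and RA+VitC iTreg, and Treg stood below them (-1.06 and -1.20). Vegfa, a ligand of neuropilin 1, was 1.22 above naive cells in RA+VitC iTreg (SE 0.07, adjusted p = 1.5e-32), where Treg stood lower (-1.5, SE 0.08, adjusted p = 9.4e-39).

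Genes whose profile over the 8 pull-downs was most like that of each member were ranked by Pearson r of log2 CPM among 8180 genes, as a description over libraries that share groups and depth. For Lrrc32 they were Sh3bgrl2 (r = 0.998), Ccr6, Bhlhe40, Rgs1 and Slc22a16 (0.995). Ccr6, a chemokine receptor, went from 34.1 ± 2.4 CPM in naive cells to 97 ± 5.9 in Treg, 185 ± 0.68 in TGFβ iTreg, then 272 ± 5.5 in RA+VitC iTreg (mean ± SD, n = 2). For Itgb8 they were Synj1 (0.983), Tnfrsf9, Cd83, Stk31 and Tmem65 (0.979). Tnfrsf9, which encodes the costimulatory receptor 4-1BB, stood at 118 ± 2.3 CPM in naive cells, 216 ± 3.5 in Treg, 181 ± 5 in TGFβ iTreg, then 146 ± 3.2 in RA+VitC iTreg, the group order of Itgb8. The lists for Itgav (Ext2, Cd80, Gprin3, Pla1a, Gbp2b) and Nrp1 (Ext2, Etfbkmt, Tmprss6, Gprin3, Ifrd1) shared Ext2 and Gprin3. Those for Furin were Car5b, Ppm1l, Castor1, Fgd2 and Popdc2, and those for Tgfb1 Thumpd2 (0.981), Dlg3, Foxn3, Msi2 and Psmg4 (0.963).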

How the data were processed

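Sheared, bisulfite-treated genomic DNA was precipitated with serum against CMS, per the labels' protocols, and inputs were set aside before precipitation. For each library, the authors deposited raw read counts in the union of broad MACS2 peaks (q of 0.01, per the table's name), with mm9 coordinates and nearest transcripts, per the file headers. The tools listed in the submitters' processing notes are MACS2 2.1.0.20151222, SAMtools 1.7, Trim Galore 0.4.2 and bcl2fastq 2.20.0.442. The aligner, counter and pooling before peak calling were not given in the sources used here. Spiked amplicons named in the labels were not used here, so values are relative within a library.

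The members and lists were chosen with earlier results of these data known. Counts per region, and summed per symbol, of the 8 pull-downs were fitted together in edgeR 4.0.16 (R 4.3.3): TMM, filterByExpr with a minimum count of 10, quasi-likelihood F test (residual degrees of freedom 4), Benjamini-Hochberg adjustment over 135412 regions or 14951 genes, threshold 0.05. All adjusted p-values are from this test unless DESeq2 1.42.0 is named. SE is the log2 fold change over the root of F. Scripts were tested on simulated data. Regions named are, per member, the one with the highest mean, the nearest to a start and the lowest p in each comparison. Like-pattern genes needed a mean of 100 reads (prior count 2). Pathway genes named were called, changed by at least 1 on the log2 scale and had a mean of 100 reads. 14577 regions without a symbol entered no gene sum. Lrrc32 has no entry in the promoter table.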

Additional observations from a re-analysis of the deposited data

How the results depend on the processing

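Fits used library-size scaling, DESeq2, no filter, a mean of 50 reads, libraries thinned to 1648804 reads, a replicate block, 1 library left out, and gene sums over regions that overlap a transcript. Sums over regions outside transcripts, Furin with the Fes region, and the region of highest mean CPM were chosen after seeing the data. Of the gene-sum values under these alternatives, 571 kept their direction and side of the threshold, 31 lost a call, 1 gained one and 3 reversed.

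Deviations of same-numbered libraries correlated at -0.016 for naive cells and Treg and 0.009 for both kinds of iTreg. Within groups, libraries differed little beyond counting noise (chi-square over degrees of freedom 1.12 to 1.23 for regions). These correlations therefore cannot tell whether the libraries were paired. Both kinds of iTreg share number tags in their titles, whose meaning the labels do not state. The replicate block left the 36 gene-sum calls as they were (6 higher in Treg than in naive cells) and moved no count of regions by over 1.5 times (78 higher for Treg against naive cells).

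Member genes higher in RA+VitC than in TGFβ iTreg numbered 3 with library size, DESeq2 or the mean filter (main 5), and 3 to 5 with a library left out. Higher in Treg than in RA+VitC iTreg was 1 with DESeq2, thinning or transcript regions (main 2), and 1 to 2 with a library left out. Library size made 1 gene lower in TGFβ iTreg than in naive cells. Outside transcripts, RA+VitC against TGFβ iTreg reversed for Lrrc32 (-0.04), Itgav (-0.06) and Nrp1 (-0.10), leaving 1 higher and 0 lower, and Treg exceeded each kind of iTreg at 1 gene.

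Of member regions, those higher in Treg than in naive cells fell from 79 to 40 with DESeq2 and 18 with thinning, and those higher than in RA+VitC iTreg from 19 to 6 and 1. Higher in Treg than in TGFβ iTreg became 2 with either, against 5. Thinning left 43 higher in RA+VitC iTreg than in naive cells, 8 higher than in TGFβ iTreg, and 29 lower in Treg than in RA+VitC iTreg. It left 50138 of all regions tested (135412 in the main fit), and the calls over all regions fell as well. DESeq2 left 3 lower in RA+VitC than in TGFβ iTreg. Lower in TGFβ iTreg than in naive cells was 2 with library size and 0 with DESeq2 or thinning; lower in RA+VitC iTreg was 0 with those 2 and 1 with no filter, which also made 1 lower in Treg. With a library left out, the ranges were 9 to 19 (higher, Treg against RA+VitC iTreg), 2 to 6 (higher) and 19 to 31 (lower, Treg against TGFβ iTreg), 2 to 6 (lower, RA+VitC against TGFβ iTreg), 0 to 1 (lower, TGFβ iTreg against naive cells) and 0 to 2 (lower, RA+VitC iTreg). The Furin start region ranged from -0.07 (reversed, without TGFβ iTreg replicate 2) to 0.90 for TGFβ iTreg against naive cells.

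The log2 contrast of Itgb8 over Lrrc32 was 1.77, 3.63 and 2.70 with transcript regions, for Treg against TGFβ, RA+VitC and both kinds of iTreg, 3.87, 4.46 and 4.17 with the region of most reads, and 0.20, 2.62 and 1.41 with that of highest mean CPM. With a library left out the contrast against both ranged from 2.12 to 2.64 for gene sums. Except where construction shows it (fewer reads or regions), the cause of these shifts was not tested. In TGFβ iTreg 3 reads are 1.42 to 1.82 CPM before TMM scaling, which limits what single Itgb8 regions can show there.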
